A study of Mus musculus with 2 samples.

Results

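The TGF-beta ligands, receptors and latency proteins are a set of 10 genes chosen by name from the 31053 genes of the feature table, by a rule that uses no measured value: the ligands *Tgfb1*, *Tgfb2* and *Tgfb3*, the receptors *Tgfbr1*, *Tgfbr2* and *Tgfbr3*, and the latent TGF-beta binding protein genes *Ltbp1*, *Ltbp2*, *Ltbp3* and *Ltbp4*. All 10 were found in both libraries. Single-cell RNA-seq had been performed on cells of the gingiva and the alveolar bone surface from wild-type (WT) C57BL/6 mice at 8 weeks of age. The control library pooled 5 untreated mice, and the LIP library pooled 5 mice with ligature-induced periodontitis, in which a silk thread tied around a molar provokes inflammation and loss of the supporting bone, taken 7 days after ligature placement. Each condition was 1 library of pooled mice, so the spread between mice cannot be measured, no test was made, and every interval given here is a 95% interval for counting error alone. A library difference and the effect of the ligature cannot be told apart.

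TGF-beta is secreted as an inactive complex, in which the cut propeptide still encloses the ligand, and most LTBPs bind that complex and tether it to fibrillin and fibronectin in the extracellular matrix. Integrins, thrombospondin and proteases release the active ligand, which binds a pair of kinase receptors, *Tgfbr2* and then *Tgfbr1*, that phosphorylate Smad proteins, and *Tgfbr3* encodes betaglycan, a co-receptor that presents the ligand. In connective tissue and bone the pathway is known for its control of matrix production and of the coupling between bone resorption and formation.

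Of 1169 control and 1212 LIP barcodes, 883 and 936 passed the limits of 200 to 7500 genes, at most 60000 UMIs and at most 10% mitochondrial UMIs. A UMI marks 1 captured transcript end, so levels, which are in CPM (a gene's UMIs for each 1000000 UMIs that a class held), do not grow with transcript length. The median was 10845 UMIs per cell in control and 5595 in LIP, and the kept cells held 8345 and 6127 UMIs of the 10 genes. The cells fell into 13 classes, each called by the cell type whose markers it held with "-like" added, plus 5 and 42 cells that stayed unnamed. Mural-like cells carried genes of pericytes and smooth muscle, and secretory-like cells genes of mucous glands such as *Muc5b*. The 19 control and 5 LIP lymphatic endothelial-like cells were too few for a ratio. Erythroid-like cells, which should lack these genes, held 1 UMI of *Tgfb2* and 1 of *Ltbp4* in 12 control cells and none in 9 LIP cells, where 0 UMIs allow up to 18.4 CPM (3 counts). The 7 erythroid markers made up 955234 CPM of the control and 873339 CPM of the LIP erythroid-like cells. All other genes share the rest, so that limit is low in CPM and cannot be set against the levels of other classes. The part of free RNA in the levels below was not tested. 2 barcodes occurred in both libraries.

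The label of the bone-lineage-like class held only in part. Its 11 bone-lineage markers, such as *Ibsp* and *Bglap*, summed to 2089 CPM in the 45 control cells and 24723 CPM in the 41 LIP cells, and its 8 cartilage markers to 875 and 3677 CPM. The 11 fibroblast markers summed to 2663 and 2937 CPM in the same cells, above the bone-lineage markers in control. 8 of the control cells carried 171 to 972 UMIs of the olfactory genes *Omp*, *Stoml3*, *Gng13*, *S100a5* and *Gnal* and only 3 UMIs of the 10 genes, and no LIP cell did. For the results below, the class was therefore also divided into bone-gene cells (at least 10 UMIs of *Ibsp*, *Bglap* and *Bglap2*; 3 control and 15 LIP cells), *Postn* cells (at least 10 UMIs of the ligament gene *Postn* and fewer of the bone genes; 13 and 14), and other cells (21 and 12). 1 cell lay near the bone-gene limit, from 5 to below 20 UMIs, and 6 lay near the *Postn* limit. In fibroblast-like cells the 11 fibroblast markers summed to 12616 CPM in control and 13204 CPM in LIP, but *Pi16* stood at 1801 and 446 CPM and *Scara5* at 363 and 87.5 CPM, while *Mfap5* stood at 1081 and 1862 CPM.

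**Figure D1:**
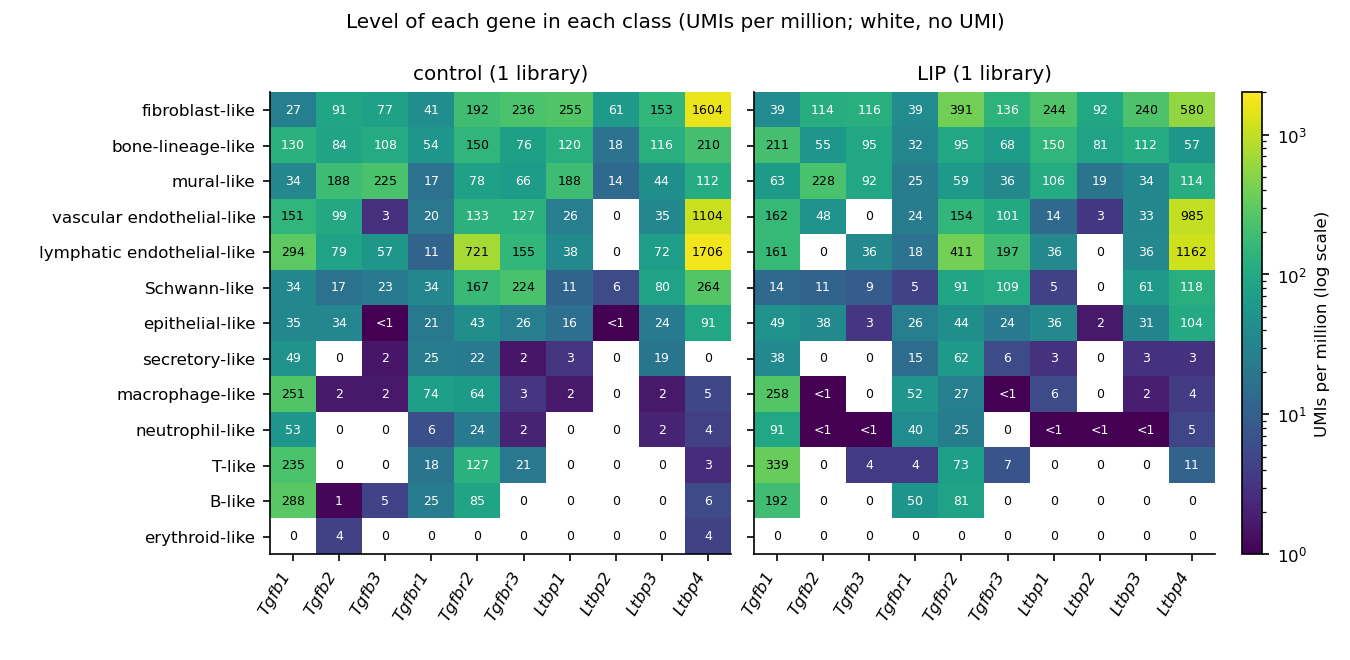
Level of each of the 10 genes (columns) in each class (rows) in the control library (left) and the LIP library (right), in CPM on a log color scale, with the value printed in each cell and white for no UMI. Among classes of at least 10 cells, *Tgfb1* was highest in lymphatic endothelial-like cells in control and in T-like cells in LIP. It reached 211 CPM in LIP bone-lineage-like cells. *Tgfb2*, *Tgfb3*, *Ltbp1*, *Ltbp2* and *Ltbp3* were highest in mural-like or fibroblast-like cells. *Ltbp4* reached 1706 CPM in control lymphatic endothelial-like cells, of which LIP had 5, and 985 CPM in LIP vascular endothelial-like cells.

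*Tgfb1* (chr7:25687002-25705077, GRCm38, plus strand) encodes the ligand that leukocytes and bone matrix are known for. In control its level was 294 CPM (233 to 367) in lymphatic endothelial-like, 288 (254 to 326) in B-like, 251 (212 to 294) in macrophage-like and 235 (189 to 289) in T-like cells, and neighbours in that order had overlapping intervals. In LIP, among classes of at least 10 cells, it was highest in T-like cells, at 339 CPM (273 to 415), followed by macrophage-like cells at 258 (233 to 284) and bone-lineage-like cells at 211 (184 to 242). Fibroblast-like cells were low in both libraries, at 26.9 and 38.7 CPM. Macrophage-like cells gave 14.2% of the control and 32.1% of the LIP library's *Tgfb1* UMIs, at nearly equal levels, and their number was 49 and 88. In the B-like class the 2 libraries held different cells, since the sub-cluster with *Ighd* and *Ms4a1* had 146 control and 0 LIP cells and the sub-cluster with *Vpreb3* and *Rag1* had 6 and 20.

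Within bone-lineage-like cells, *Tgfb1* was highest in the bone-gene cells, which gave 20 of the 65 control and 150 of the 209 LIP UMIs. It was found in 3 of 3 bone-gene cells in control, at 422 CPM (258 to 652), and in 15 of 15 in LIP, at 321 CPM (271 to 376). In *Postn* cells it was at 187 and 140 CPM, and in the other cells at 61.4 and 64.7 CPM. The level over fibroblast-like and bone-lineage-like cells together was 62.1 CPM in control and 154 CPM in LIP, a log2 ratio of 1.31 (0.95 to 1.68). The ratio was -0.40 (-1.08 to 0.35) within bone-gene cells and -0.42 (-1.08 to 0.26) within *Postn* cells. The bone-gene ratio rests on 3 control cells, below the limit of 10, and 1 of them held 10 of the 20 control UMIs. The higher pooled level was thus not seen inside *Postn* cells, and the control bone-gene cells were too few to say. The makeup of the pool differed between the libraries. Fibroblast-like cells were 87 of 132 in control and 23 of 64 in LIP, and bone-gene cells were 3 and 15. The 8 olfactory-gene cells were all in control. The part of this makeup in the pooled ratio was not tested. Over all bone-lineage-like cells the ratio was 0.70 (0.29 to 1.12).

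*Tgfb2* (chr1:186622792-186705989, minus strand) and *Tgfb3* (chr12:86056745-86079041, minus strand) were both highest in stromal classes, but *Tgfb2* was not limited to them. Vascular endothelial-like cells ranked second for *Tgfb2* in control, at 98.5 CPM (68.2 to 138). *Tgfb2* was highest in mural-like cells, at 188 CPM (155 to 226) in control and 228 (193 to 268) in LIP. Fibroblast-like cells were at 91.0 CPM (73.0 to 112) and 114 (86.1 to 148). Epithelial-like cells held 45.1% of the control *Tgfb2* UMIs at only 33.6 CPM, as they were the largest class, with 263 cells. Vascular endothelial-like cells held 34 *Tgfb2* UMIs in 7 of 48 control cells and 42 in 19 of 79 LIP cells, a fall from 98.5 to 48.4 CPM, and 13 of the 34 control UMIs lay in 1 cell. The log2 ratio was -1.03 (-1.71 to -0.33), and -0.65 (-1.48 to 0.21) without the cell with the most UMIs in each library.

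*Tgfb3* was highest in mural-like cells in control, at 225 CPM (188 to 267), and was at 92.2 CPM (70.2 to 119) there in LIP. Fibroblast-like cells were at 76.5 CPM in control and 116 CPM in LIP, and bone-lineage-like cells at 108 and 95.04 CPM. The LIP levels of these classes lay in the same range. The log2 ratio in mural-like cells was -1.29 (-1.76 to -0.83). The class had a sub-cluster led by the contractile genes *Tagln* and *Myh11* and a sub-cluster led by the pericyte gene *Rgs5*. In the contractile sub-cluster *Tgfb3* was at 291 CPM in 28 control cells and 106 CPM in 25 LIP cells, and in the *Rgs5* sub-cluster at 68.4 CPM in 18 cells and 74.2 CPM in 20. 1 contractile control cell held 47 of the 121 UMIs, and without the cell with the most UMIs in each library the ratio was -0.94 (-1.59 to -0.33) in the contractile sub-cluster and -0.91 (-1.44 to -0.40) in the class, short of 2-fold.

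The receptor *Tgfbr1* (chr4:47353222-47414931, plus strand), the type I kinase, was highest in macrophage-like cells, at 73.6 CPM (53.5 to 98.8) in control and 52.5 (41.7 to 65.1) in LIP. Bone-lineage-like cells in control, at 54.1 CPM (35.6 to 78.7), and B-like cells in LIP, at 50.5 (16.4 to 118), came next with overlapping intervals. Among the classes with at least 20 *Tgfbr1* UMIs over both libraries, the ratio was largest in neutrophil-like cells. They held 3 UMIs in 3 of 53 control cells and 65 UMIs in 52 of 320 LIP cells, which was 6.42 CPM (1.32 to 18.8) against 40.2 (31.0 to 51.2). The log2 ratio was 2.65 (1.04 to 4.96), and no LIP cell held more than 3 UMIs. In the sub-cluster led by *Acod1* and *Ccl3*, 2 control and 55 LIP UMIs gave 11.1 and 50.4 CPM, a ratio of 2.18 (0.26 to 5.26). In the immature cells led by *Ltf* and *Camp*, 1 control and 10 LIP UMIs were too few for a call, with a ratio of 2.45 (-0.36 to 7.89). The macrophage markers, of which 4 and 6 of 10 were found, summed to 9806 CPM in control and 5265 CPM in LIP in neutrophil-like cells, and their part in the result was not tested. After thinning every cell to 1000 UMIs, 1 of 53 control cells (1.89%, 0.05 to 10.1) and 15 of 311 LIP cells (4.82%, 2.72 to 7.83) had a *Tgfbr1* UMI, and those intervals overlapped. At 2000 UMIs per cell it was 0 of 51 control cells, which allows up to 5.88% of cells with a UMI (3 counts), and 23 of 288 LIP cells (7.99%, 5.13 to 11.7). In bone-lineage-like cells the log2 ratio of *Tgfbr1* was -0.74 (-1.53 to 0.05), and without the cells with olfactory genes it was -1.02 (-1.81 to -0.21). The *Postn* cells of that class held 20 UMIs in 10 of 13 control cells and 10 in 7 of 14 LIP cells, at 107 CPM (65.2 to 165) and 29.8 (14.3 to 54.8), a ratio of -1.84 (-3.10 to -0.68). Schwann-like cells held only 6 control and 2 LIP UMIs, at 34.5 and 4.54 CPM, a ratio of -2.93 (-6.27 to -0.44).

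*Tgfbr2* (chr9:116084293-116175360, minus strand), the type II kinase that binds the ligand, was highest in lymphatic endothelial-like cells in control, at 721 CPM (622 to 831) in 19 cells, far above fibroblast-like cells at 192 CPM (166 to 222). In LIP, 5 lymphatic endothelial-like cells had 411 CPM (261 to 617) and fibroblast-like cells 391 (337 to 450), and these did not differ beyond their intervals. It moved in different directions in different classes. In macrophage-like cells it was at 63.5 CPM (44.97 to 87.2) in control and 26.9 (19.4 to 36.3) in LIP, a log2 ratio of -1.24 (-1.91 to -0.57), and it was -1.22 without the cell with the most UMIs in each library. The makeup of this class moved too: the 8 dendritic markers summed to 706 and 198 CPM (7 and 8 found), the 9 B markers to 269 and 98.6 CPM (4 found in each), the 10 T markers to 73.6 and 10.2 CPM (8 found in each), and the 7 osteoclast markers to 78.6 and 1163 CPM (3 and 5 found). Their part in the results of macrophage-like cells was not tested. In fibroblast-like cells 186 control and 192 LIP UMIs gave a log2 ratio of 1.02 (0.72 to 1.32), but 54 of the LIP UMIs lay in 1 cell, and the ratio without the cell with the most UMIs was 0.72 (0.38 to 1.05). In bone-lineage-like cells *Tgfbr2* was at 150 CPM in control and 95.04 CPM in LIP, a ratio of -0.66 (-1.11 to -0.20). Over fibroblast-like and bone-lineage-like cells together the ratio was 0.12 (-0.13 to 0.37), which joins a higher and a lower LIP level. Secretory-like cells held 14 UMIs in 16 control cells and 21 in 11 LIP cells, a ratio of 1.48 (0.44 to 2.57).

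The co-receptor gene *Tgfbr3* (chr5:107106570-107289629, minus strand) was highest in control in fibroblast-like cells, at 236 CPM (206 to 268) against 136 (106 to 173) in LIP, with Schwann-like cells next at 224 (159 to 306) and 109 (80.3 to 144). The 5 LIP lymphatic endothelial-like cells had 197 CPM (98.2 to 352). The log2 ratio was -0.79 (-1.21 to -0.39) in fibroblast-like and -1.04 (-1.68 to -0.39) in Schwann-like cells. It was similar in both Schwann sub-clusters, -0.94 in myelin-gene cells with *Mbp* and *Ncmap* among their leading genes and -0.96 in the cells led by *Scn7a* and *Gfra3*. In *Postn* cells of the bone-lineage-like class the ratio was 1.16 (0.01 to 2.49), from 8 UMIs in 8 of 13 control cells and 32 in 11 of 14 LIP cells. Without the cell with the most UMIs in each library it was 0.88 (-0.38 to 2.34). Macrophage-like, neutrophil-like and B-like cells held 3 *Tgfbr3* UMIs in control and 1 in LIP between them. Cells with UMIs of both kinase receptors made up 33 of 132 fibroblast-like and bone-lineage-like cells in control and 32 of 64 in LIP, at median depths of 11622.5 and 20157 UMIs. With all cells thinned to 1000 UMIs the shares were 3 of 130 (2.31%, 0.48 to 6.60) and 1 of 64 (1.56%, 0.04 to 8.40). At 2000 UMIs they were 6 of 126 (4.76%, 1.77 to 10.1) and 2 of 64 (3.13%, 0.38 to 10.8). So few cells kept UMIs of both receptors at these depths that the shares cannot show whether the libraries differ at equal depth.

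**Figure D2:**
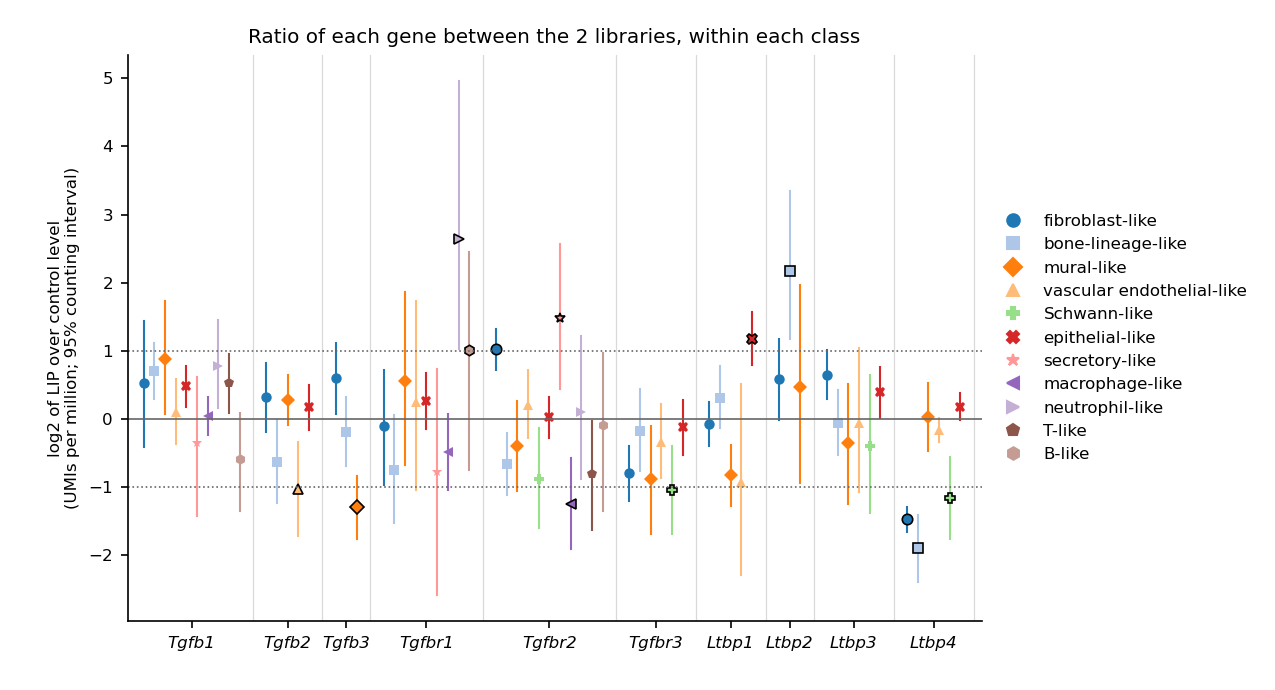
log2 of the LIP over the control level (CPM) of each gene in each class with at least 20 UMIs over both libraries and at least 10 cells in each, with 95% counting intervals as lines and a black rim on points past 2-fold (dotted lines). The points past 2-fold range from -1.89 for *Ltbp4* in bone-lineage-like cells to 2.65 for *Tgfbr1* in neutrophil-like cells, and most points lie between the dotted lines.

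Of the latency proteins, *Ltbp4* (chr7:27305136-27337692, minus strand), which is also known for its part in elastic fibre assembly, and *Ltbp2* (chr12:84783212-84876532, minus strand), a microfibril protein that does not bind latent TGF-beta, differed most between the libraries in bone-lineage-like cells, in opposite directions (log2 ratios of -1.89 and 2.17), though not in every class. The 250 bases before their starts are printed for that reason, from RefSeq on GRCm38.p6, 5′ to 3′ along the minus strand, with the GC box GGGCGG and its complement CCGCCC in capitals. 8 of the 10 genes matched the promoter table, all but *Tgfb3* and *Tgfbr3*. *Ltbp4* has 3 listed starts, and the 2 shown lie 3964 bases apart. Counts of 3′ ends cannot tell apart transcripts from these starts. By the gene spans given here, which come from the GENCODE mouse annotation, the downstream *Ltbp4* window lies inside the gene and the other windows overlap the first bases of their genes.

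Ltbp4, upstream start, chr7:27337613-27337862: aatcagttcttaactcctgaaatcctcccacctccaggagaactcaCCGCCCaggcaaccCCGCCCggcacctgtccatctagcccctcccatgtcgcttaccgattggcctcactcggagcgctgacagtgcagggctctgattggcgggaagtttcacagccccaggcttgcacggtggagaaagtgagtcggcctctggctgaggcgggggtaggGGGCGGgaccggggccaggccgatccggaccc
Ltbp4, downstream start, chr7:27333649-27333898: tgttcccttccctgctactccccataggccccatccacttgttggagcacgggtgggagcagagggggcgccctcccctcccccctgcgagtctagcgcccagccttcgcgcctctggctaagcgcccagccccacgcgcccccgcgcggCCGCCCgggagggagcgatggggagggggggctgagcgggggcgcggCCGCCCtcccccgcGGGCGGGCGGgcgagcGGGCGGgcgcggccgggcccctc
Ltbp2, chr12:84876492-84876741: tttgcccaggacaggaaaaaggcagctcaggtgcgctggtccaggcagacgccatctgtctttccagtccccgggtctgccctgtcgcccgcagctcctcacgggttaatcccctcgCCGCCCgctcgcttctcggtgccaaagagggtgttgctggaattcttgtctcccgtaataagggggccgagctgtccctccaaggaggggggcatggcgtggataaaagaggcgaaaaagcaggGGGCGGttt

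The window of the upstream *Ltbp4* start held the GC box 3 times, the downstream *Ltbp4* window 5 times and the *Ltbp2* window 2 times, counting both strands and overlapping matches. Among all 32851 promoters of the table, 32.7% held it at least once in the same 250 bases, as did windows of 4 of the 8 matched genes (*Tgfb1*, *Tgfbr1*, *Ltbp2* and *Ltbp4*). A match describes these letters only.

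*Ltbp4* was at 1706 CPM (1553 to 1871) in lymphatic endothelial-like, 1604 (1525 to 1686) in fibroblast-like and 1104 (996 to 1221) in vascular endothelial-like cells in control. In LIP fibroblast-like cells it was at 580.0 CPM (515 to 651), and in vascular endothelial-like cells at 985 (920 to 1053), so the order of these 2 classes turned over. The log2 ratio was -1.47 (-1.65 to -1.28) in fibroblast-like and -0.17 (-0.34 to 0.01) in vascular endothelial-like cells. Vascular endothelial-like cells gave 11.6% of the control and 49.9% of the LIP library's *Ltbp4* UMIs, and fibroblast-like cells 47.2% and 16.6%. Fibroblast-like cells with a UMI were 82 of 87 in control and 18 of 23 in LIP, and no cell held more than 71 or 55 UMIs. Without the cell with the most UMIs in each library, the ratio was -1.67 (-1.88 to -1.47). *Pi16* and *Scara5* were lower in the same cells, at the values given above, and their part in the result was not tested.

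In bone-lineage-like cells *Ltbp4* was at 210 CPM (172 to 255) in control and 56.6 (42.8 to 73.5) in LIP, a log2 ratio of -1.89 (-2.39 to -1.41), and it was -2.22 (-2.72 to -1.74) without the olfactory-gene cells. *Postn* cells had 155 and 98.3 CPM, a ratio of -0.66 (-1.42 to 0.12), and the other cells had 436 and 80.8 CPM, a ratio of -2.43 (-3.34 to -1.61). The bone-gene cells had 5 UMIs in 3 control cells and 8 in 15 LIP cells. In Schwann-like cells 46 of 46 control UMIs and 51 of 52 LIP UMIs lay in the *Scn7a* sub-cluster, at 499 and 297 CPM, a ratio of -0.75 (-1.35 to -0.14). The *Scn7a* cells were 20 of 37 in control and 28 of 103 in LIP, so the class ratio of -1.16 (-1.76 to -0.56) held this difference in numbers too. Among the *Scn7a* cells, 1 control cell held 19 of the 46 UMIs and 1 LIP cell 16 of the 51. Without the cell with the most UMIs in each library the sub-cluster was at 319 and 220 CPM, a ratio of -0.54 (-1.30 to 0.25). The class ratio was then -0.95 (-1.71 to -0.17), short of 2-fold. In mural-like cells the class was at 112 and 114 CPM, but 1 control cell held 41 of its 66 control UMIs. Without the cell with the most UMIs in each library the class was at 44.3 and 94.8 CPM, a ratio of 1.10 (0.40 to 1.84). Inside the class the *Rgs5* sub-cluster was at 120 CPM (74.1 to 183) and 237 (183 to 301), a ratio of 0.98 (0.26 to 1.77), while 41 of the 45 control UMIs of the contractile sub-cluster lay in 1 cell, without which it was at 10.3 and 11.5 CPM.

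*Ltbp2* was the rarest of the 10 and was held by stroma. Fibroblast-like cells had 59 UMIs in 15 of 87 control cells and 45 in 9 of 23 LIP cells, at 61.0 CPM (46.4 to 78.7) and 91.6 (66.8 to 123). Bone-lineage-like cells had 9 UMIs in 3 of 45 control cells and 80 in 10 of 41 LIP cells, at 18.0 CPM (8.24 to 34.2) and 80.9 (64.1 to 101), a log2 ratio of 2.17 (1.17 to 3.35). Most of it lay in *Postn* cells, with 6 UMIs in 2 of 13 control cells and 71 in 7 of 14 LIP cells, or 32.0 CPM (11.8 to 69.7) and 212 (165 to 267), a ratio of 2.72 (1.53 to 4.22). 1 control cell held 5 of the 6 UMIs and 1 LIP cell 23 of the 71. Without these 2 cells, 48 LIP UMIs stood against 1 control UMI, a ratio of 4.68 (2.14 to 10.0) that rests on a nearly empty control. *Postn* itself was at 5020 CPM in these control cells and 11497 CPM in the LIP cells, so the LIP group was richer in the gene that defined it. Both endothelial classes and all leukocyte classes together held 4 *Ltbp2* UMIs in LIP and 0 in control.

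**Figure D3:**
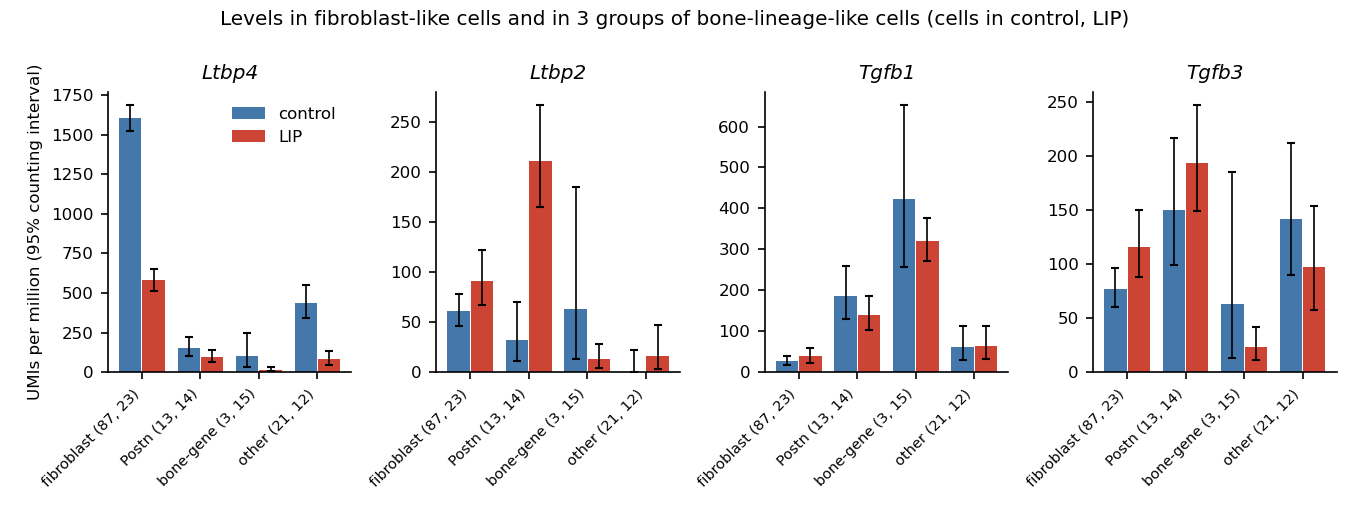
Levels of *Ltbp4*, *Ltbp2*, *Tgfb1* and *Tgfb3* in fibroblast-like cells and in the *Postn*, bone-gene and other cells of the bone-lineage-like class, in CPM (bars) with 95% counting intervals (lines), in control (blue) and LIP (red), with the numbers of cells in brackets. *Ltbp4* fell from 1604 to 580.0 in fibroblast-like cells, *Ltbp2* stood highest in LIP *Postn* cells at 212, and *Tgfb1* stood highest in bone-gene cells in both libraries.

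*Ltbp1* (chr17:75005568-75392512, plus strand), which anchors latent TGF-beta to matrix, was highest in fibroblast-like cells, at 255 CPM (225 to 289) in control and 244 (202 to 292) in LIP. Next came mural-like cells in control, at 188 CPM (155 to 226), and bone-lineage-like cells in LIP, at 150 CPM (126 to 176). In mural-like cells it lay in the contractile sub-cluster, with 111 UMIs in 22 of 28 control cells against 0 UMIs in 18 cells of the *Rgs5* sub-cluster, a level of 0 that allows up to 17.1 CPM there (3 counts), and in LIP 62 UMIs in 21 of 25 cells against 6 UMIs in 1 of 20. Epithelial-like cells were at 16.0 CPM (13.2 to 19.2) in control and 36.3 (29.8 to 43.8) in LIP, a log2 ratio of 1.18 (0.79 to 1.57). Most of these UMIs lay in the basal sub-cluster with *Col17a1* and *Trp63*, at 35.6 CPM (27.7 to 44.97) in 81 cells and 86.8 (69.4 to 107) in 38, a ratio of 1.29 (0.81 to 1.76), while the cycling sub-cluster with *Top2a* had 14.7 and 9.12 CPM. 2 LIP epithelial-like cells carried 3944 UMIs of the collagen genes *Col1a1*, *Col1a2* and *Col3a1*, and without such cells (at least 10 collagen UMIs) the class ratio of *Ltbp1* was 1.20 (0.80 to 1.59). In all LIP epithelial-like cells the mural markers summed to 233 CPM against 69.9 CPM in control (10 of 10 found in each), and the fibroblast markers to 74.6 against 10.0 CPM (9 and 10 of 11 found). Their part in the result was not tested.

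*Ltbp3* (chr19:5740904-5758532, plus strand), a partner of latent TGF-beta in bone, had no ratio past 2-fold in any whole class with at least 20 UMIs. It was highest in fibroblast-like cells, at 153 CPM (129 to 180) in control and 240 (199 to 288) in LIP, a log2 ratio of 0.65 (0.29 to 1.01). Bone-lineage-like cells were at 116 CPM (88.2 to 150) and 112 (92.3 to 135). In the epithelial-like sub-cluster led by *Krt76*, 18 UMIs in 44 control cells and 15 in 13 LIP cells gave 12.2 and 38.9 CPM. The log2 ratio there was 1.68 (0.59 to 2.75).

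**Figure D4:**
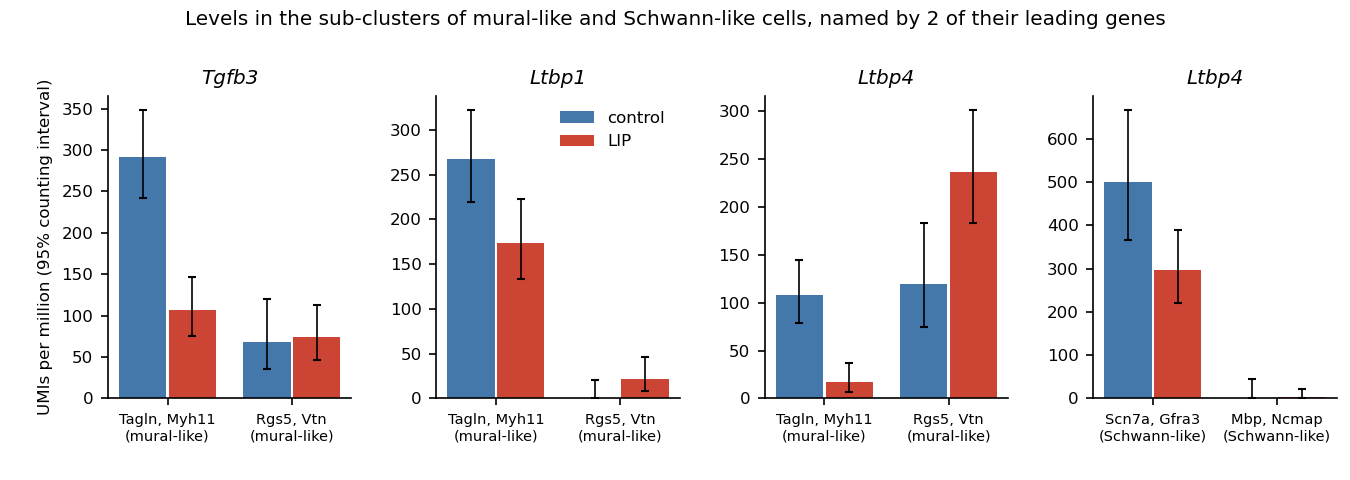
Levels in CPM (bars) with 95% counting intervals (lines) in sub-clusters of mural-like cells (3 left panels) and Schwann-like cells (right panel), each named by 2 of its leading genes, in control (blue) and LIP (red). *Ltbp1* was held by contractile-gene cells, *Ltbp4* of Schwann-like cells by the *Scn7a* cells at 499 and 297, and the *Ltbp4* bar of 108 in contractile-gene control cells rests on 1 cell. In the *Scn7a* cells, 1 control cell held 19 of 46 *Ltbp4* UMIs and 1 LIP cell 16 of 51.

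By class, 64 of the 110 pairs of gene and class had at least 20 UMIs over both libraries, and 6 of them were higher and 7 lower in LIP by at least 2-fold, with 51 in between. The share of all genes past 2-fold in each class gives the background. In fibroblast-like cells 1 of 10 was higher and 1 lower, against 4.50% and 6.79% of 7772 genes. In bone-lineage-like cells 1 of 10 was higher and 1 lower, against 6.76% and 15.1%. In mural-like cells 0 of 10 were higher and 1 was lower, against 5.78% and 4.91%. In vascular endothelial-like cells 0 of 8 were higher and 1 was lower, against 8.04% and 5.42%. In epithelial-like cells 1 of 8 was higher and none lower, against 5.71% and 3.09%. In Schwann-like cells none of 4 was higher and 2 were lower, against 6.18% and 7.19%.

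Among the classes with few genes counted, macrophage-like cells had none of 3 higher and 1 lower, against 10.2% and 6.04% of all genes. Neutrophil-like cells had 1 of 3 higher and none lower, against 12.0% and 6.32%. Secretory-like cells had 1 of 3 higher and none lower, against 2.91% and 3.82%. B-like cells had 1 of 3 higher (*Tgfbr1*, 1.01, -0.75 to 2.45) and none lower, against 12.0% and 11.6%, and T-like cells had none of 2 past 2-fold in either direction, against 10.4% and 8.19%. The counts of 1 or 2 genes per class do not stand clear of these shares. The median log2 ratio over all genes was -0.22 in bone-lineage-like, 0.15 in B-like and 0.10 in T-like cells and between -0.04 and 0.05 in the other classes, so ratios in bone-lineage-like cells are 0.22 higher relative to it.

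The other genes of the pathway were counted from 6 lists of 39 genes in all. Over the same 11 classes, 270 pairs of gene and class had enough UMIs, and 63 were higher and 18 lower in LIP by at least 2-fold. Of all genes, 2.91% to 12.0% were higher and 3.09% to 15.1% lower, depending on the class. The pairs repeat the same genes over classes and are not independent. Of the matrix anchors *Fbn1*, *Fbn2*, *Fn1* and *Emilin1*, to which LTBPs attach, 10 of 20 pairs were higher and 0 lower. The fibronectin gene *Fn1* was higher in mural-like (149 and 411 CPM, log2 ratio 1.46), vascular endothelial-like (125 and 336 CPM, 1.43) and macrophage-like cells (463 and 1125 CPM, 1.28), and the fibrillin gene *Fbn2* in fibroblast-like cells (13.4 and 83.4 CPM, 2.63). *Fn1* was also past 2-fold higher in neutrophil-like (1.02) and epithelial-like cells. Without the collagen-rich cells, epithelial-like cells had 6.12 and 31.5 CPM (2.37, 1.84 to 2.91).

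Of the genes that activate latent TGF-beta, 11 of 43 pairs were higher and 2 lower. *Thbs1*, thrombospondin 1, was at 374 CPM in control and 1474 CPM in LIP neutrophil-like cells (1.98) and at 253 and 668 CPM in macrophage-like cells (1.40). It was also at 110 CPM (18 UMIs) in LIP erythroid-like cells, and 3 of the 11 higher pairs, *Thbs1* in vascular endothelial-like (66.8 CPM), fibroblast-like (46.8 CPM) and epithelial-like cells (24.2 CPM), lay below that level. The erythroid markers lower the CPM of other genes in erythroid-like cells, as given above, so on a like measure more pairs could lie below. The part of free RNA in the *Thbs1* pairs was not tested. The integrin gene *Itgav* was at 23.4 and 95.4 CPM in macrophage-like cells (2.03), beside the osteoclast markers given above. *Lrrc32*, which holds latent TGF-beta at the cell surface, was lower in bone-lineage-like cells (24.0 and 8.09 CPM, -1.57). In that class 15.1% of all genes were past 2-fold lower, and its makeup differed between the libraries as given above. The part of that makeup in the *Lrrc32* ratio was not tested.

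Of the list of co-receptors and decoys, 3 of 28 pairs were higher and 3 lower. The decoy receptor gene *Bambi* was at 9.89 and 49.7 CPM in epithelial-like cells (2.33). *Acvrl1*, a type I receptor gene counted in this list, was at 152 and 42.04 CPM in neutrophil-like cells (-1.85). The 6 mast markers summed to 477 and 0 CPM in neutrophil-like cells (5 and 0 found), and their part was not tested. *Eng* was at 0.95 and 18.8 CPM in epithelial-like cells (4.31), in which the vascular endothelial markers, *Eng* being an endothelial gene, summed to 9.08 and 206 CPM (10 of 10 found in both libraries). Their part in the result was not tested. Of the Smad genes, 5 of 38 pairs were higher and 3 lower, and the largest was *Smad2* in Schwann-like cells, from 1 UMI in control and 22 in LIP (3.12, 0.49 to 8.49). Of the binding proteins and inhibitors, 11 of 76 pairs were higher and 8 lower. The 2 higher pairs of epithelial-like cells had log2 ratios of 0.85 (0.34 to 1.35) and 0.25 (-1.29 to 1.63) without the collagen-rich cells, short of 2-fold. *Fmod*, a small proteoglycan of ligament and tendon, was at 5.17 and 220 CPM over the 87 control and 23 LIP fibroblast-like cells (5.41). It was also among the 10 leading genes of bone-lineage-like cells. In fibroblast-like cells the 8 cartilage markers summed to 88.9 and 179 CPM, and the 11 bone-lineage markers to 86.9 and 57.0 CPM. Their part in the *Fmod* ratio was not tested. The feedback gene *Skil* was at 29.0 and 104 CPM in vascular endothelial-like cells (1.84). *Dcn*, a proteoglycan that binds TGF-beta, was at 513 and 53.1 CPM in mural-like cells (-3.27) and at 37 and 2 UMIs in Schwann-like cells (-5.55, -8.65 to -3.59). It is also a gene of fibroblasts, whose 11 markers summed to 655 and 195 CPM in mural-like cells (10 and 9 found) and to 1396 and 2174 CPM in Schwann-like cells (9 and 5 found). Their part in the result was not tested.

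Of the response genes, 23 of 65 pairs were higher and 2 lower. Of these, 11 of the 23 were collagen genes in classes other than the fibroblast-like, bone-lineage-like, mural-like and Schwann-like cells, where *Col1a1*, *Col1a2* and *Col3a1* summed in LIP to 125 CPM in neutrophil-like, 127 in macrophage-like, 102 in vascular endothelial-like and 90.9 in B-like cells, beside 36.8 CPM in erythroid-like cells. In epithelial-like cells they summed to 1389 CPM, and to 66.2 CPM without the 2 cells named above. The erythroid-like CPM is not a like measure, since the erythroid markers took up 873339 CPM of those LIP cells. In UMIs, the collagen genes held 6 in 9 erythroid-like, 202 in 320 neutrophil-like and 9 in 20 B-like LIP cells. They held 199 in 88 macrophage-like and 89 in 79 vascular endothelial-like LIP cells. The part of free RNA in these collagen levels was not tested. Without these pairs, 12 of 51 were higher and 2 lower. *Col1a1* was at 15285 and 52144 CPM in bone-lineage-like cells (1.77) and at 7925 and 17704 CPM in fibroblast-like cells (1.16). *Acta2* was at 18.0 and 272 CPM in bone-lineage-like cells (3.92) and at 14.5 and 95.6 CPM in vascular endothelial-like cells (2.72), and *Tgfbi* at 371 and 1045 CPM in macrophage-like cells (1.49). Bone-lineage-like cells held 3 control and 15 LIP bone-gene cells, and 8 olfactory-gene cells in control alone. The part of this makeup in their *Col1a1* and *Acta2* ratios was not tested. *Ctgf* was lower in Schwann-like (149 and 15.9 CPM, -3.23) and fibroblast-like cells (382 and 165 CPM, -1.21). In vascular endothelial-like cells the 10 mural markers, of which 4 and 7 were found, summed to 290 and 433 CPM beside *Acta2*, and their part in it was not tested.

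**Figure D5:**
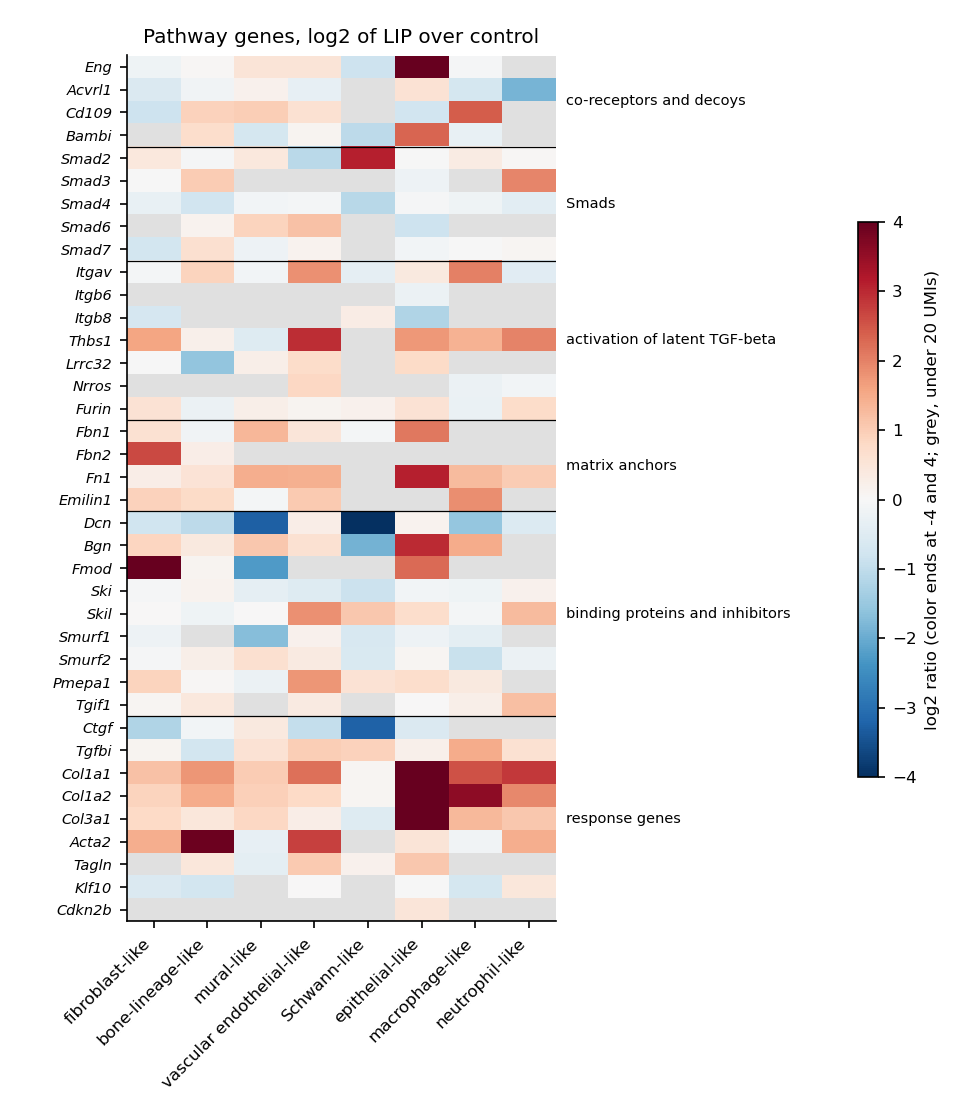
log2 of the LIP over the control level (CPM) of 38 pathway genes (rows, by list) in 8 classes (columns), with grey for fewer than 20 UMIs over both libraries and color that ends at -4 and 4. Past 2-fold, *Fn1* was higher in LIP in mural-like, vascular endothelial-like, macrophage-like, epithelial-like and neutrophil-like cells. *Dcn* was lower past 2-fold in mural-like, Schwann-like, bone-lineage-like and macrophage-like cells. Most collagen UMIs of LIP epithelial-like cells lay in 2 cells.

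Across the 24 sums of class and library with at least 10 cells, on the scale of log2(CPM + 10), the highest correlation between 2 of the 10 genes was that of *Tgfbr3* with *Ltbp4* (r = 0.92), followed by *Tgfb3* with *Ltbp1* (0.90) and *Tgfb2* with *Ltbp1* (0.90). *Tgfb1* had its lowest with *Ltbp3* (-0.24), and its highest with any of the 10 was 0.37, with *Tgfbr1*. Of 9835 other genes, *Nfkb1* was most like *Tgfb1* (0.84), *Pls3* most like *Tgfb2* (0.95), *Cacna2d1* most like *Tgfb3* (0.96), *Phka2* most like *Tgfbr1* (0.78), *Polr3gl* most like *Tgfbr2* (0.88), *Lysmd2* most like *Tgfbr3* (0.97), *Nbl1* most like *Ltbp1* (0.94), *Cercam* most like *Ltbp2* (0.97), *Klhl22* most like *Ltbp3* (0.96) and *Hdgfl3* most like *Ltbp4* (0.93). The points share 2 libraries, and their depth ranges with the class, so these are descriptions.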

How the data were processed

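Single cells of pooled periodontal tissue were sequenced with the 10x Genomics Single-cell 3′ kit (v3), 1 library per condition. Per the labels and the matrix header, the authors aligned and counted reads with Cell Ranger (3.1.0 in the header) on mm10, and the deposited values are raw UMI counts per gene and barcode, not normalised. Cells were kept by the study's limits (200 to 7500 genes, at most 60000 UMIs, at most 10% mitochondrial UMIs), integrated and clustered in Seurat 5.3.0 (2000 variable features, 30 dimensions, resolution 0.1; sub-clusters of classes at 0.2), and clusters were named from 21 marker lists. Scrublet (scanpy 1.11.5) marked only 4 control and 1 LIP cells as doublets and was not used as a filter.

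UMIs were summed per class and library and divided by the class total (CPM), with exact Poisson intervals, and log2 ratios had exact conditional intervals, all 95%. A ratio counted as past 2-fold with an absolute log2 of at least 1, at least 20 UMIs over both libraries and at least 10 cells in each; a sum of 0 was set to 3 counts. Shares of cells had exact (Clopper-Pearson) intervals. No test was made. The ratio was checked on simulated sums, drawn independently for each gene and without cells. This check cannot show how the intervals fare where many UMIs lie in 1 cell. Promoters came from RefSeq tables of GRCm38.p6. Named genes were the 10 members, at most the 4 genes of each pathway list with the largest absolute ratio past 2-fold, and the genes best correlated with each member. *Ctgf*, *Tgfbi*, *Pi16*, *Scara5*, *Mfap5* and the olfactory genes were picked with their values known. 1 response gene is in the counts of its list but is not reported here by itself. The members and lists were chosen with earlier results of these data known. 10 other settings were tried, and 5 more, the division of bone-lineage-like cells and the values within sub-clusters among them, were chosen after seeing the data.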

Additional observations from a re-analysis of the deposited data

Results flagged for a closer look

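*Tgfbr2* had ratios past 2-fold in opposite directions in different classes. The log2 ratio of LIP over control was 1.02 in fibroblast-like cells and -1.24 in macrophage-like cells, and it was 1.48 in secretory-like cells. The differences between these classes were not tested, since each rests on 1 library per condition. The value of fibroblast-like cells depends on 1 cell with 54 UMIs and on the settings given next.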

How the results depend on the processing

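Over 10 other settings and 5 more chosen after seeing the data, 191 values were obtained for the ratios past 2-fold, and 152 stayed past 2-fold in the same direction. *Ltbp4* in fibroblast-like cells ranged from -2.34 to -1.31 over its settings and *Tgfbr1* in neutrophil-like cells from 1.86 to 3.14. The *Ltbp4* value of -2.34 came with a 5% mitochondrial limit, where the fibroblast-like class also held the bone-lineage-like cells, as given below. *Ltbp2* in bone-lineage-like cells fell to 0.58 with 15 dimensions. With a 5% mitochondrial limit, *Tgfbr2* was -0.024 in fibroblast-like and -0.13 in secretory-like cells, and without the highest 5% of Scrublet scores it was -0.28 in fibroblast-like cells; in these settings no separate bone-lineage-like class formed, so the fibroblast-like class held both kinds of cells. Within sub-clusters, *Ltbp1* was -0.69 in cycling epithelial-like cells and *Tgfb3* was 0.12 in *Rgs5* mural-like cells. The count of member ratios higher in LIP was 6, and 3 with a 5% mitochondrial limit or with means over cells; the count lower was 7, and 4 without the cell with the most UMIs in each library. The pathway count lower was 18, and 10 with a 5% mitochondrial limit or 5 with at least 50 UMIs. The thinned share of stromal cells with both kinase receptors was 0.0% in both libraries with a 5% limit and 0.0% in LIP without the highest Scrublet scores. The cause was not tested. No paired analysis was possible because each condition has 1 library. Depth limits the rarest genes: 0 UMIs in secretory-like cells of LIP still allow 8.84 CPM (3 counts).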
